A study of Homo sapiens with 6 samples.

Results

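The 38 genes described here encode the Fanconi anaemia pathway and the homologous recombination machinery, together with the kinases that signal to them. They were taken by symbol from a list of names, with no threshold on their values, and all 38 were found among the 20036 genes of the deposited table. The cells were PANC-1, an established human pancreatic cancer line, and whole cultures were profiled by RNA-seq in 6 libraries. In the 3 knockdown libraries the cells had received a lentivirus that knocks down SHMT2, the mitochondrial serine hydroxymethyltransferase that passes one-carbon units from serine to folate. In the 3 control libraries they had received a null virus. The hairpin sequence, the time after infection and the number of viral constructs are not given in the labels. Nothing in the labels says that libraries of a group came from separate cultures, so each p-value is set against the spread among 3 libraries that could be repeats of 1 culture.

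Interstrand crosslinks tie both strands of DNA together and stall replication forks. In the Fanconi pathway a multi-subunit ubiquitin ligase, the core complex, marks the FANCD2 and FANCI clamp, and nucleases then cut beside the crosslink. The resulting break is resected by the MRE11 complex and its partners, BRCA2 acts on the resected single strand, and the sister chromatid serves as the template for repair. ATM and ATR start the checkpoint signal, and cells use most of these proteins in S and G2 phase.

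SHMT2 itself had 139, 56 and 101 counts in the knockdown libraries, against 2113, 2284 and 2417 in the control libraries. That is 5.19 ± 1.74 CPM (counts scaled by library total and TMM factor) in knockdown cells and 146 ± 11.4 CPM in control cells (SD, n = 3 each), or 3.55% of the control mean. Library totals were 16748432 to 19075734 counts in knockdown cells and 15405884 to 16366452 in control cells. One library of each group stood apart from its replicates: control 1, and knockdown 2, which had 10.42% of its counts on 13 mitochondrial genes where both other knockdown libraries had 4.72%. Of 6 epithelial and mesenchymal markers listed for PANC-1, KRT8, KRT18 and VIM were abundant in all 6 libraries and the other 3 were low. EPCAM had 5.96 to 7.57 CPM in knockdown libraries and 17.6 to 18.6 CPM in control libraries, CDH1 2.83 to 4.92 CPM in knockdown libraries and 0.601 to 1.46 CPM in control libraries, and KRT7 0.855 to 1.99 CPM in knockdown libraries and 0.881 to 1.27 CPM in control libraries. The genes CDKN2A and CDKN2B, which PANC-1 is known to have lost, had 0 counts in each. Of the 31 markers listed for immune, fibroblast, endothelial, acinar and endocrine cells, 4 reached 10 counts in any library and 12 had 0 counts in all 6. The summed endothelial markers came to 5.91 to 7.30 CPM in knockdown libraries and 0.506 to 0.692 CPM in control libraries; in knockdown libraries nearly all of it was KDR, with 114, 100 and 132 counts against 4, 4 and 4, and its part in the results below was not tested.

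The repair genes moved in both directions, more of them upward. Of the 38 genes, all of which passed the filter on low counts, 19 were higher in knockdown cells at an edgeR adjusted p below 0.05, where 26.6% of all 12292 tested genes were called higher. Another 4 were lower, FANCA, FANCE, FANCG and RAD51C, where 25.0% of all tested genes were called lower. Together 23 of the 38 were called in either direction, where 51.6% of all tested genes were, and 15 were not called. The median log2 fold change of the 38 genes was 0.43, and that of all tested genes was 0.00. The 19 higher genes ranged from 0.30 to 1.2 on the log2 scale, with a median of 0.67, and 6 of them at least doubled: ATM, BRCA2, FANCM, BRCA1, MRE11 and RAD50. The 4 lower genes ranged from -1.24 to -0.51. In 21 genes every knockdown library lay above every control library, which held for 31.3% of all tested genes, and in 6 genes every knockdown library lay below every control library, which held for 30.2%. Culture lysates mix cells of all cycle phases, and a different share of cells in a phase cannot be told apart from a different amount of RNA per cell.

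**Figure D1:**
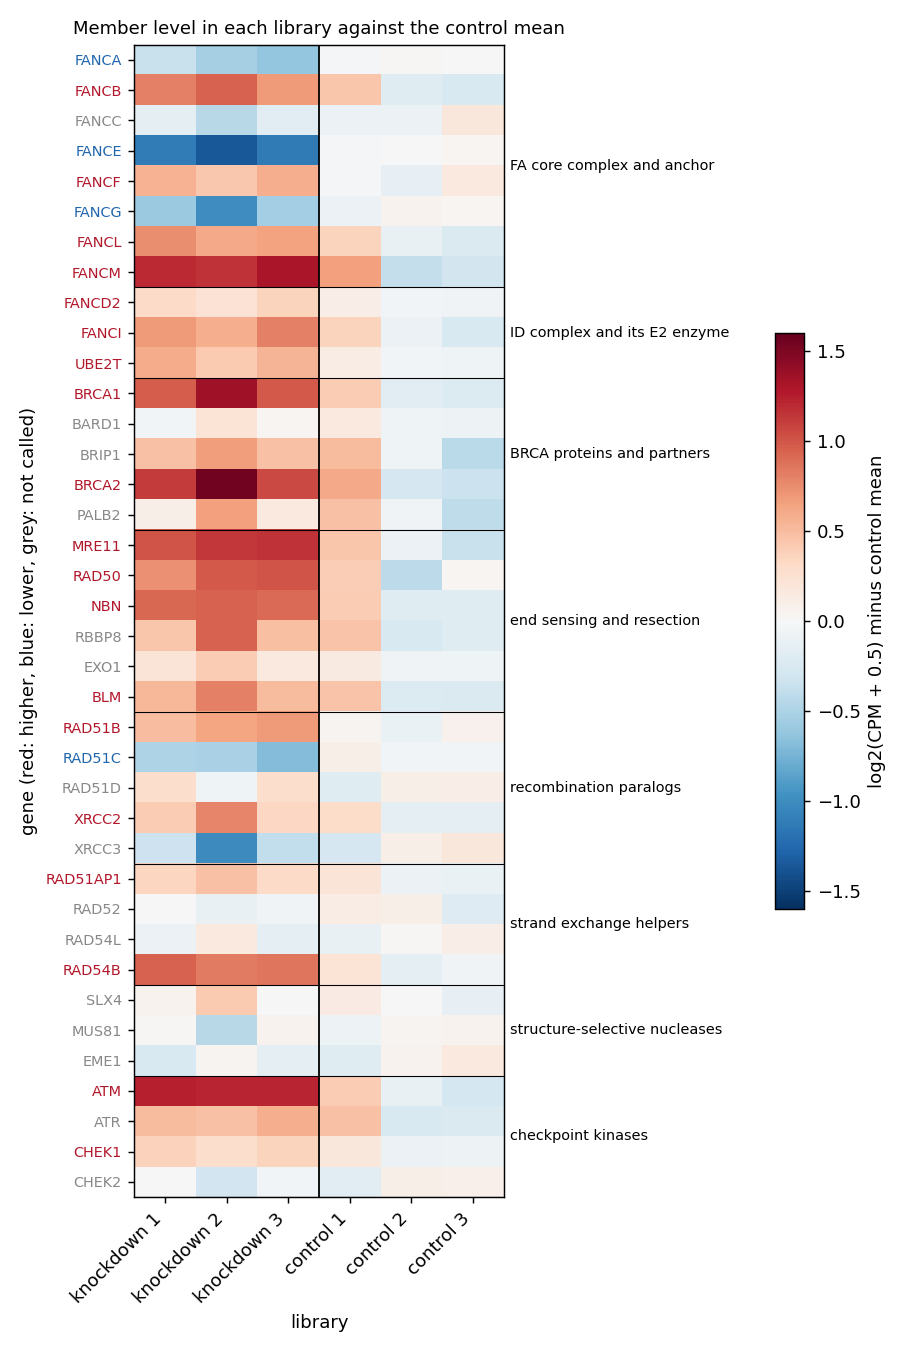
Each row is 1 of the 38 repair genes and each column 1 of the 6 libraries, knockdown on the left and control on the right; colour gives the log2 ratio of the library's CPM (with 0.5 added) to the mean of the control libraries. ATM, BRCA2 and FANCM were raised in all 3 knockdown libraries, FANCE was lowered in all 3, and control 1 was the highest control library in 26 of the 38 genes.

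To show what lies in front of the genes that moved most, the 250 bases before a transcription start are printed for the 3 highest rises with a promoter entry and for all 4 falls. They come from RefSeq on GRCh38.p14, are written 5′ to 3′ on the strand of the gene, and have in capitals each match to a motif searched. ATM lies on the plus strand at chr11:108222817-108223066, BRCA2 on the plus strand at chr13:32315258-32315507, and FANCM on the plus strand at chr14:45135680-45135929. FANCE lies on the plus strand at chr6:35452088-35452337, FANCG on the minus strand at chr9:35079943-35080192, RAD51C on the plus strand at chr17:58692323-58692572, and FANCA on the minus strand at chr16:89816648-89816897.
ATM: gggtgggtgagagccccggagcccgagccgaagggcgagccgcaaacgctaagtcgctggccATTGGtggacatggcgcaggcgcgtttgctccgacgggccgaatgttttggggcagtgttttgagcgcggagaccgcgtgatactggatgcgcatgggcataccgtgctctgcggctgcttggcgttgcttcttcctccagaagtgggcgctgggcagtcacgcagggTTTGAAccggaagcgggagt
BRCA2: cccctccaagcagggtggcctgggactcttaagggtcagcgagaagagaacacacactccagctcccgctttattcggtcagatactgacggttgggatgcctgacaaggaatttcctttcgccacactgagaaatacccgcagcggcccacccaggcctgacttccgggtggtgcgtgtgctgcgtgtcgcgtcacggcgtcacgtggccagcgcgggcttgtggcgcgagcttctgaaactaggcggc
FANCM: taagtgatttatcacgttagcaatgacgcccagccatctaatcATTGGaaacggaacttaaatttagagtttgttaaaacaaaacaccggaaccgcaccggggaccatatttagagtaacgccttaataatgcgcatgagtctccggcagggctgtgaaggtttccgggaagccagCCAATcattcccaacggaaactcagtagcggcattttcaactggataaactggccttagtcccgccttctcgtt
FANCE: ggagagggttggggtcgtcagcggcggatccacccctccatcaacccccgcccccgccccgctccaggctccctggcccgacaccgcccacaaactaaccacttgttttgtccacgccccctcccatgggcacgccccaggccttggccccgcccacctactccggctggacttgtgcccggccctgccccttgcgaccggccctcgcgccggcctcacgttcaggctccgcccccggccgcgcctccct
FANCG: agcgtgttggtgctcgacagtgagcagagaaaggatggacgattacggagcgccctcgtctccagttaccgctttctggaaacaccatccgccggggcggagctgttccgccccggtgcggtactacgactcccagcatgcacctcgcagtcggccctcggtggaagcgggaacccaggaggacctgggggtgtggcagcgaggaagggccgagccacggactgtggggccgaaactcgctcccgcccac
RAD51C: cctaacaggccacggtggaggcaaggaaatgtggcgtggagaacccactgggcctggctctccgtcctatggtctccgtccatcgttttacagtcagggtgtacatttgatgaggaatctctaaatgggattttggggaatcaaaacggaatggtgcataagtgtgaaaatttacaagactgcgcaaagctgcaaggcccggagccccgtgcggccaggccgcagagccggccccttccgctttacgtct
FANCA: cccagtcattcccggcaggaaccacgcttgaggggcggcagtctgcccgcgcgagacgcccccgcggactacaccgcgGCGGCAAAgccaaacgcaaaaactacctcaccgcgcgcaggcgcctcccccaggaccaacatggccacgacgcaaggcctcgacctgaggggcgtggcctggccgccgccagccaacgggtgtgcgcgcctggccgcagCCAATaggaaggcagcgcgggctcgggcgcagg

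The motifs were searched on both strands over 300 bases, 250 before the start and 50 after it, and no matches overlapped each other in the windows of the 35 repair genes with an entry. The letters TTTCCCGC, TTTGGCGC, TTTCGCGC and TTTGCCGC resemble the site of E2F factors, which drive S phase genes; TTTGAA and TTCGAA are forms of the CHR element of mitotic genes, and CCAAT is the box bound by NF-Y. An E2F-like word was present for FANCA, FANCC, FANCD2, EXO1 and XRCC2, 14.3% of the 35 genes, and for 6.70% of 9993 tested genes and 3.99% of all 27305 genes with a window. The CHR letters were present for 11.4% of the repair genes, 15.2% of tested genes and 19.5% of all. CCAAT was present for 45.7% of the repair genes, 43.1% of tested genes and 39.7% of all. Among the printed stretches, ATM held CCAAT on the reverse strand from base -188 to -184 before the start and TTTGAA from -20 to -15. FANCM held CCAAT from -207 to -203 on the reverse strand and from -74 to -70 on the forward one. FANCA held TTTGCCGC on the reverse strand from -172 to -165 and CCAAT from -33 to -29. No letters searched were found in the stretches of BRCA2, FANCE, FANCG and RAD51C. Over the 300 bases, E2F-like words and CCAAT were thus found for genes called in opposite directions. Among genes called higher, the E2F-like word of FANCD2 spanned the start, from -2 to 6. That of XRCC2 lay after it, from 22 to 29. The median GC content of the 250 bases was 60.8% for the 16 higher genes with a window, 69.0% for the 4 lower ones and 64.8% for all tested genes.

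The deposited table gives positions of which most match GRCh38, and in it the 4 falls lie on 4 chromosomes: FANCE (ENSG00000112039, chromosome 6, 35452338 to 35467104), FANCG (ENSG00000221829, chromosome 9, 35073835 to 35080004), RAD51C (ENSG00000108384, chromosome 17, 58692573 to 58735611) and FANCA (ENSG00000187741, chromosome 16, 89726683 to 89816977). Of the 6 genes that at least doubled, MRE11 and ATM share chromosome 11, and RAD50 (ENSG00000113522) spans chromosome 5, 132556019 to 132646349. Exons overlap those of another gene on the opposite strand over 25.1% of their bases in RAD54L, 23.6% in FANCA, 18.7% in FANCL, 16.4% in EME1 and ATR, 13.9% in MUS81 and 11.3% in FANCF, and MRE11 and RBBP8 have processed pseudogenes, so the counts of these genes could hold reads of the others.

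The genes of the core complex were called in both directions, as were those of the whole table. Of the 8 genes for its subunits and anchor, 4 were higher and 3 lower in knockdown cells, where 26.6% of all tested genes were higher and 25.0% lower, and the median log2 fold change of the 8 was 0.14. FANCE, the subunit that touches the FANCD2 substrate, had 11.2, 9.41 and 11.1 CPM in the 3 knockdown libraries and 24.4, 24.98 and 25.6 CPM in the 3 control libraries. It had the largest fall of the 38 genes, with a log2 fold change of -1.24 (SE 0.11, edgeR adjusted p = 0.000152), and the groups lay far apart. FANCG, a scaffold subunit, had 45.6, 34.3 and 46.97 CPM in knockdown libraries and 64.4, 72.1 and 70.4 CPM in control libraries, a log2 fold change of -0.70 (SE 0.13, edgeR adjusted p = 0.00372). FANCA, the largest subunit of that scaffold and the gene most often mutated in Fanconi anaemia, had 23.7, 21.01 and 19.7 CPM in knockdown libraries and 29.96, 31.1 and 30.9 CPM in control libraries. Its fall of -0.51 (SE 0.10, edgeR adjusted p = 0.00499) was the smallest of the 4, and here too no knockdown library reached a control library. FAAP20, which encodes a small protein that binds FANCA, is not among the 38 genes; it was lower as well, with 20.5 ± 2.21 CPM in knockdown cells and 31.2 ± 3.85 CPM in control cells (SD, n = 3 each).

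FANCL, FANCB, FANCF and FANCM were higher. FANCL, the RING protein that transfers ubiquitin, had 75.4, 68.1 and 70.2 CPM in knockdown libraries and 57.2, 41.4 and 38.2 CPM in control libraries, a log2 fold change of 0.64 (SE 0.16, edgeR adjusted p = 0.0105). FANCB, which holds FANCL in place, had 16.99, 18.7 and 15.5 CPM in knockdown libraries and 13.03, 8.28 and 7.91 CPM in control libraries (0.81, SE 0.20, edgeR adjusted p = 0.0124). In both genes control 1 was the highest control library and still lay below every knockdown library. FAAP100, which encodes the third protein of the module with FANCB and FANCL and is not among the 38, was lower, at 22.6 ± 2.24 CPM in knockdown cells and 36.9 ± 0.674 CPM in control cells (SD, n = 3 each). FANCF, an adaptor between subunits, had 14.9, 13.6 and 15.1 CPM in knockdown libraries and 9.82, 9.09 and 11.1 CPM in control libraries (0.54, SE 0.13, edgeR adjusted p = 0.00869). FANCM, the translocase that anchors the complex to stalled forks, had 22.6, 21.9 and 24.2 CPM in knockdown libraries and 15.4, 7.21 and 7.72 CPM in control libraries. Its log2 fold change was 1.18 (SE 0.27, edgeR adjusted p = 0.00857), the largest in the complex, and control 1 stood at about double the other controls. FANCC, which pairs with FANCE, averaged 30.6 ± 3.203 CPM in knockdown cells and 36.8 ± 4.17 CPM in control cells (SD, n = 3 each) and was not called (edgeR adjusted p = 0.113), although its groups did not overlap.

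Transcripts of all 3 genes of the ubiquitination step were higher, where 26.6% of all tested genes were called higher. FANCI and FANCD2 form the clamp that the core complex marks, and UBE2T is the conjugating enzyme that hands the ubiquitin to FANCL. FANCI had 139, 129 and 151 CPM in knockdown libraries and 110.4, 80.7 and 72.4 CPM in control libraries, a log2 fold change of 0.67 (SE 0.16, edgeR adjusted p = 0.0102). UBE2T had 78.2, 69.5 and 75.3 CPM in knockdown libraries and 56.2, 49.8 and 49.4 CPM in control libraries (0.52, SE 0.10, edgeR adjusted p = 0.00326). In neither gene did the groups overlap. FANCD2 had 63.6, 59.9 and 65.1 CPM in knockdown libraries and 54.9, 49.6 and 48.98 CPM in control libraries, the smallest rise called among the 38 (0.30, SE 0.09, edgeR adjusted p = 0.0269). That call was lost when either of knockdown 1, knockdown 3, control 2 or control 3 was left out, with edgeR adjusted p values of 0.0882, 0.0946, 0.111 and 0.111. FANCD2 also has a pseudogene copy, FANCD2P2, with which its reads could be shared.

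BRCA1 and BRCA2 rose, and their 3 partners were not called. BRCA1, the ligase subunit that promotes resection, had 89.2, 117 and 89.95 CPM in knockdown libraries and 60.2, 39.95 and 38.9 CPM in control libraries. The log2 fold change was 1.09 (SE 0.20, edgeR adjusted p = 0.00283), and knockdown 2 was the highest library. BRCA2, which acts after resection, had 49.5, 66.2 and 46.97 CPM in knockdown libraries and 34.5, 18.6 and 17.7 CPM in control libraries, 1.2 on the log2 scale (SE 0.27, edgeR adjusted p = 0.00777). Control 1 again stood above the other controls and below all knockdown libraries. BARD1, the obligate partner of BRCA1, had 47.5, 57.2 and 49.97 CPM in knockdown libraries and 54.5, 46.7 and 46.4 CPM in control libraries, with overlapping groups and a log2 fold change of 0.07 (SE 0.11, edgeR adjusted p = 0.648). PALB2, the bridge between BRCA1 and BRCA2, had 29.02, 43.01 and 30.6 CPM in knockdown libraries and 37.96, 26.2 and 20.4 CPM in control libraries (edgeR adjusted p = 0.372). BRIP1, a helicase bound by BRCA1, had 36.8, 42.5 and 36.9 CPM in knockdown libraries and 37.6, 25.2 and 19.5 CPM in control libraries (edgeR adjusted p = 0.0952). In PALB2 and BRIP1 control 1 lay inside the knockdown range while both other controls lay below it.

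End sensing and resection had the highest median of the roles, 0.75 on the log2 scale over 6 genes. That median was 0.32 with the trend on gene length and GC content described below removed. Of the 6 genes 4 were higher, where 26.6% of all tested genes were called higher. The 3 genes of the MRE11 complex, which binds broken ends, were all higher. MRE11, the nuclease, had 93.02, 101.0 and 103 CPM in knockdown libraries and 62.5, 43.02 and 35.7 CPM in control libraries (1.07, SE 0.19, edgeR adjusted p = 0.00294). NBN, the subunit that recruits ATM, had 101.2, 102 and 99.7 CPM in knockdown libraries and 70.4, 46.1 and 46.1 CPM in control libraries (0.90, SE 0.17, edgeR adjusted p = 0.0036). RAD50, the ATPase that tethers ends, had 75, 74 and 89 counts in knockdown libraries and 45, 21 and 33 counts in control libraries, far fewer than its partners (1.01, SE 0.26, edgeR adjusted p = 0.0128). In GENCODE 29 the exons of RAD50 overlap those of a second gene model on the same strand, AC116366.3, over 79.7% of their bases, and that model had 0 counts in all 6 libraries, so the level of RAD50 is uncertain.

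BLM, the helicase that unwinds ends for resection and dissolves joined molecules, had 69.2, 83.4 and 68.2 CPM in knockdown libraries and 65.6, 40.9 and 40.7 CPM in control libraries (0.58, SE 0.20, edgeR adjusted p = 0.0397). The highest control library, control 1, came close to the lowest knockdown library. The call for BLM was lost without knockdown 1, 2 or 3 or without control 2 or 3, with edgeR adjusted p values of 0.0736, 0.113, 0.0634, 0.136 and 0.129. RBBP8, also known as CtIP, the cofactor that starts resection, had 80.6, 114 and 83.1 CPM in knockdown libraries and 81.3, 49.8 and 51.4 CPM in control libraries (edgeR adjusted p = 0.0503). EXO1, the exonuclease of long-range resection, had 74.6, 84.8 and 71.6 CPM in knockdown libraries and 70.7, 61.5 and 61.1 CPM in control libraries (edgeR adjusted p = 0.0758). Control 1 was the highest control in both genes; it lay inside the knockdown range of RBBP8 and below that of EXO1.

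The 5 paralogs that assist strand exchange went separate ways. RAD51C, the subunit common to both paralog complexes, had 17.3, 17.1 and 15.1 CPM in knockdown libraries and 26.3, 23.8 and 24.05 CPM in control libraries (-0.58, SE 0.11, edgeR adjusted p = 0.00316). RAD51B, its direct partner, had 7.16, 7.94 and 8.23 CPM in knockdown libraries and 5.099, 4.54 and 5.19 CPM in control libraries (0.65, SE 0.14, edgeR adjusted p = 0.00628). No libraries of the groups overlapped in either gene, in opposite directions. XRCC2 had 54.4, 71.04 and 51.8 CPM in knockdown libraries and 50.3, 37.1 and 37.1 CPM in control libraries (0.51, SE 0.17, edgeR adjusted p = 0.0372). Its call was lost without knockdown 1 or 2 or without control 2 or 3, with edgeR adjusted p values of 0.0624, 0.0964, 0.13 and 0.124. RAD51D averaged 24.4 ± 3.38 CPM in knockdown cells and 21.7 ± 2.51 CPM in control cells (SD, n = 3 each), and its groups overlapped. XRCC3, the other partner of RAD51C, had 9.74, 5.86 and 9.32 CPM in knockdown libraries and 10.2, 13.2 and 14.05 CPM in control libraries; the groups did not overlap, and the log2 fold change of -0.58 (SE 0.22) was not called (edgeR adjusted p = 0.056). The exons of XRCC3 overlap those of KLC1 on the opposite strand over 76.7% of their bases, and without a stated strand setting reads of the pair cannot be told apart.

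**Figure D2:**
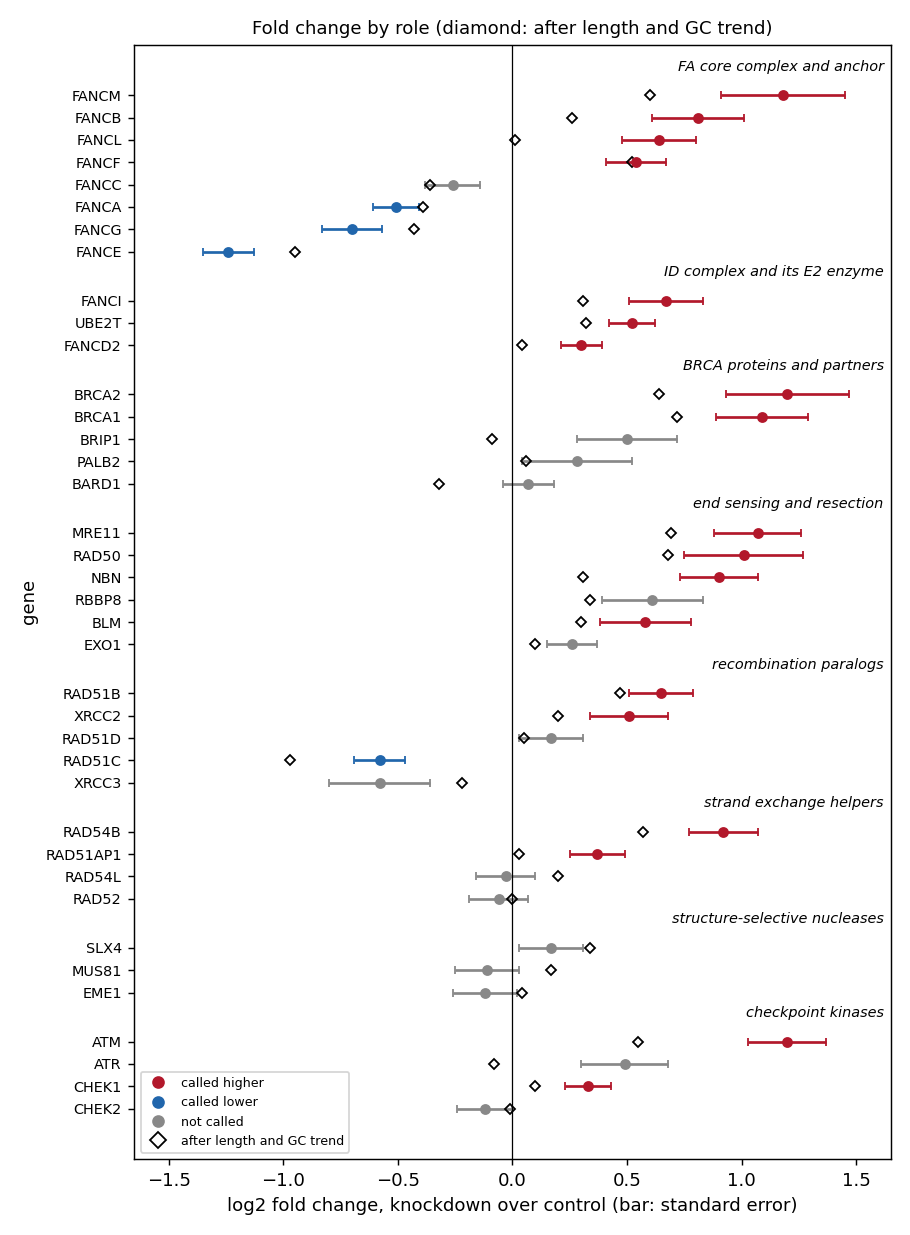
Points give the log2 fold change of knockdown over control for each of the 38 genes, grouped by role, with bars of 1 SE and open diamonds for the value after removal of a length and GC trend; colour shows whether the gene was called higher, lower or not called by edgeR at an adjusted p below 0.05. FANCE at -1.24 and FANCM at 1.18 mark the ends of the core complex, and all 3 genes of the MRE11 complex lie at 0.90 or above.

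Among the genes that assist strand exchange, RAD54B and RAD51AP1 were higher and RAD54L and RAD52 were not called. RAD54B, a translocase related to RAD54L, had 10.6, 9.77 and 9.99 CPM in knockdown libraries and 6.23, 4.68 and 5.06 CPM in control libraries (0.92, SE 0.15, edgeR adjusted p = 0.00177). FSBP shares 59.1% of the exon bases of RAD54B on the same strand and had 300, 270 and 319 counts in knockdown libraries against 82, 61 and 70 in control libraries, so the division of reads between them is uncertain. RAD51AP1, which stabilises joint molecules, had 43.6, 47.9 and 42.4 CPM in knockdown libraries and 39.7, 32.2 and 31.7 CPM in control libraries (0.37, SE 0.12, edgeR adjusted p = 0.0311). Its call was lost whenever any library but control 1 was left out, with edgeR adjusted p values from 0.0582 to 0.12, and it has a processed pseudogene, RAD51AP1P1. RAD54L, a translocase of strand exchange, averaged 20.5 ± 2.51 CPM in knockdown cells and 21.01 ± 1.71 CPM in control cells (SD, n = 3 each; edgeR adjusted p = 0.836). RAD52, an annealing protein, averaged 11.5 ± 0.540 CPM in knockdown cells and 12.04 ± 1.496 CPM in control cells (SD, n = 3 each; edgeR adjusted p = 0.72).

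None of the 3 structure-selective nuclease genes was called by edgeR. SLX4, the scaffold that gathers the nucleases at a crosslink, averaged 49.7 ± 8.0 CPM in knockdown cells and 44.2 ± 4.08 CPM in control cells (SD, n = 3 each; edgeR adjusted p = 0.325). MUS81, the catalytic subunit that cuts forks and joined molecules, averaged 28.8 ± 5.17 CPM in knockdown cells and 31.1 ± 1.58 CPM in control cells (SD, n = 3 each; edgeR adjusted p = 0.553). EME1, its partner, averaged 18.1 ± 1.93 CPM in knockdown cells and 19.7 ± 2.46 CPM in control cells (SD, n = 3 each; edgeR adjusted p = 0.477). The groups overlapped in all 3 genes.

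Of the checkpoint kinases, ATM and CHEK1 were higher. ATM, the kinase that answers double-strand breaks, had 183, 181 and 180.4 CPM in knockdown libraries and 102, 71.3 and 63.5 CPM in control libraries. Its knockdown libraries differed from each other by less than 3 CPM, and the log2 fold change of 1.2 (SE 0.17, edgeR adjusted p = 0.00103) was the joint highest of the 38 with BRCA2. CHEK1, the effector kinase of ATR, had 117, 109 and 115 CPM in knockdown libraries and 102, 84.3 and 84.99 CPM in control libraries (0.33, SE 0.10, edgeR adjusted p = 0.0276). Its call was lost without knockdown 1 or 3 or without control 2 or 3, with edgeR adjusted p values of 0.0943, 0.0825, 0.118 and 0.111. ATR, the kinase that answers exposed single strands, had 79.1, 77.3 and 83.5 CPM in knockdown libraries and 76.9, 47.1 and 47.2 CPM in control libraries; control 1 came within 1 CPM of the knockdown range, and ATR was not called (edgeR adjusted p = 0.0653). CHEK2, the effector kinase of ATM, averaged 33.6 ± 3.73 CPM in knockdown cells and 36.6 ± 3.63 CPM in control cells (SD, n = 3 each; edgeR adjusted p = 0.429), and it has several pseudogene copies.

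Levels per length differed widely among the repair genes. They are given here as the deposited FPKM, reads scaled by gene length and by library total, and the table's gene length can exceed that of any 1 transcript. UBE2T was the highest of the 38 genes in both groups, with 39.7 ± 3.97 FPKM in knockdown cells and 26.1 ± 2.06 FPKM in control cells (SD, n = 3 each). CHEK1 followed with 20.9 ± 1.596 FPKM in knockdown cells and 15.7 ± 1.84 FPKM in control cells, and EXO1 with 19.1 ± 0.900 FPKM in knockdown cells and 15.1 ± 1.35 FPKM in control cells (SD, n = 3 each), so the ranges of mean ± SD of these neighbours in the order overlapped in each group. RAD50 was the lowest, with 0.417 ± 0.0439 FPKM in knockdown cells and 0.194 ± 0.0666 FPKM in control cells (SD, n = 3 each). Its level is uncertain because of the exon overlap described above. Genes with a small log2 fold change could be abundant on this scale, as EXO1 at 0.26, and those with a large one could be scarce, as FANCM at 1.18. FANCM had 1.24 ± 0.107 FPKM in knockdown cells and 0.516 ± 0.236 FPKM in control cells (SD, n = 3 each).

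**Figure D3:**
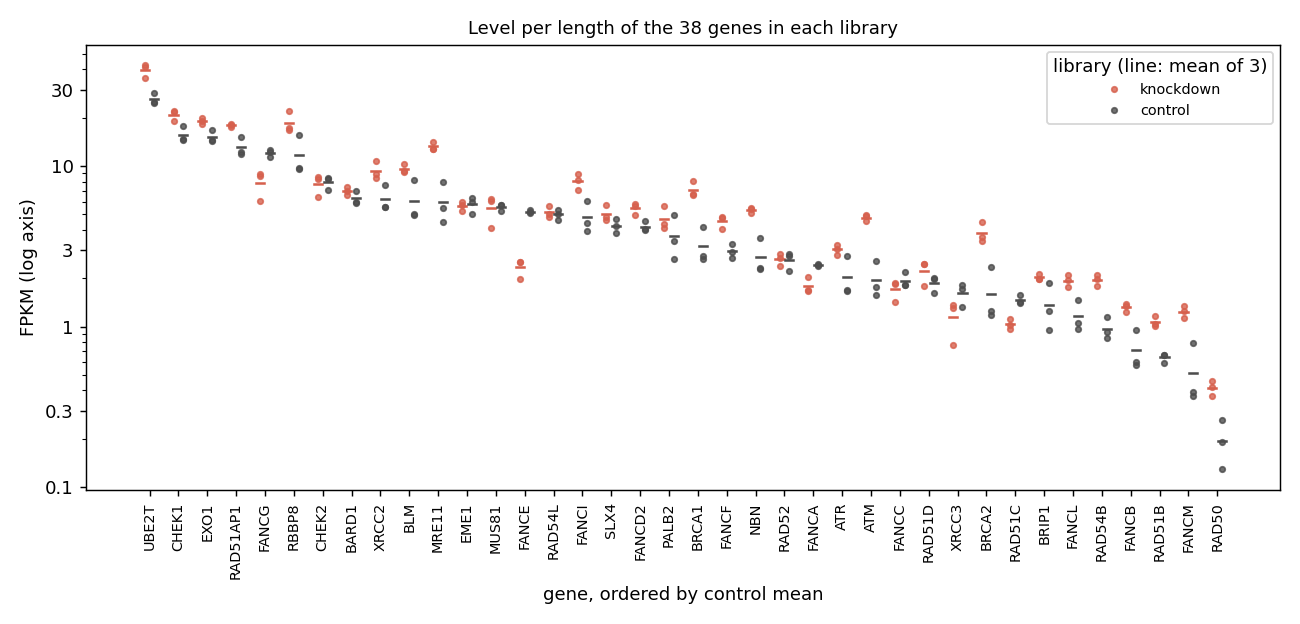
FPKM on a log axis for each of the 38 genes, ordered by their control mean; points are single libraries, knockdown on the left of each pair and control on the right, and short lines are means of 3. UBE2T is the highest gene and RAD50 the lowest in both groups, and the points of ATM, BRCA2 and FANCE fall into separate groups.

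The repair genes that rose were mostly poor in GC, and GC-poor genes rose more often across the transcriptome. Of the 25 repair genes whose longest transcript had under 45% GC, 18 were higher and 1 lower, with a median log2 fold change of 0.61; among all 4713 tested genes of that class 42.4% were higher and 11.8% lower, with a median of 0.30. Of the 9 repair genes with at least 50% GC, 0 were higher and 3 lower, with a median of -0.26, which was also the median of all 5521 such genes. RAD51C, at 42.2% GC, was the single fall in the GC-poor class. Across the 38 genes Spearman's rho between log2 fold change and GC content was -0.75, and across all 12274 tested genes with a GC value it was -0.39; genes share libraries, so these are descriptions. The same gradient was present between control libraries: for GC-poor repair genes the median log2 ratio to the control mean was 0.53, 0.67 and 0.58 in knockdown libraries, against 0.39, -0.12 and -0.20 in control 1, 2 and 3. Control 1 was thus nearer to the knockdown libraries than to the other controls for these genes.

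A smooth trend on the table's gene length and on the GC content of the longest transcript was fitted over all genes. It accounted for 9.4% of the variance of the fold changes, and with it removed the median of the 38 genes was 0.13. All 19 genes called higher kept a positive value and all 4 called lower a negative one, while 12 of the 19 stayed above 0.3. No such count is given for all called genes, so whether this sets the 38 apart is not known. BRCA1 then stood at 0.72, MRE11 at 0.69, RAD50 at 0.68, BRCA2 at 0.64, FANCM at 0.60 and ATM at 0.55. FANCL at 0.01, RAD51AP1 at 0.03 and FANCD2 at 0.04 were close to 0. Among the falls, RAD51C stood at -0.97 and FANCE at -0.95. Neighbouring genes were compared as well. The 50 tested genes nearest to each repair gene on its chromosome had a positive median in 15 of the 19 higher genes and a negative median in all 4 lower ones, where this held for 72.5% of all 3269 genes called higher and 70.1% of all 3073 called lower. The 38 genes lie on 18 chromosomes. That median was -0.40 around FANCE, -0.42 around FANCA and 0.43 around ATM. The 4 higher genes with a negative one were FANCD2 at -0.43, BRCA1 at -0.17, RAD51AP1 at -0.14 and XRCC2 at -0.10.

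**Figure D4:**
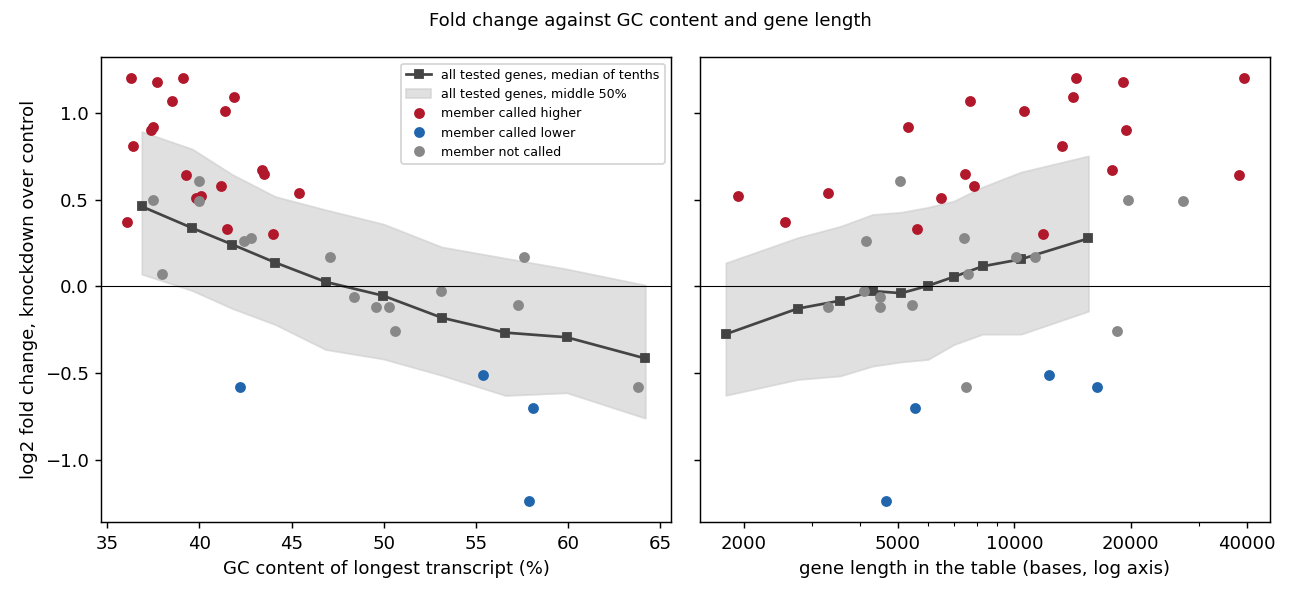
Log2 fold change of knockdown over control against the GC content and the length of the gene, with the 38 repair genes as points; the line joins medians of all tested genes in 10 equal bins and the band holds their middle 50%. The repair genes under 45% GC lie mostly above 0 and those of 50% GC or more lie mostly below it, and the line of all genes falls from left to right in the GC panel.

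Leaving out single libraries separated calls that held in every fit from those that did not. In all 6 fits that each left out 1 library, 13 of the 19 higher genes and all 4 lower genes were still called. The same share is not given for all called genes, so it cannot be read as a trait of the 38. The 6 higher genes lost in at least 1 fit were FANCB, FANCD2, BLM, XRCC2, RAD51AP1 and CHEK1, of which FANCB was lost only without control 2, at an edgeR adjusted p of 0.0523. Without control 1 another 4 genes were called higher, BRIP1, RBBP8, EXO1 and ATR, with edgeR adjusted p values of 0.00467, 0.00592, 0.033 and 0.000626, and XRCC3 was called lower at 0.036. With both libraries that stood apart left out, 24 of the 38 genes were higher and 7 lower, where 36.7% of 12415 tested genes were higher and 36.6% lower, 73.4% in all; this comparison was added after the data were seen and rests on 2 libraries a group. PALB2 was then higher, at an edgeR adjusted p of 0.000121, and FANCC and EME1 were lower, at 0.00769 and 0.00552. A test against a change of 1.2-fold, edgeR's glmTreat, called 14 genes higher and 4 lower, where 19.7% and 17.9% of all tested genes were called.

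Other genes of the same pathways were called in both directions, as were all tested genes, of which 26.6% were higher and 25.0% lower. Of 13 other Fanconi pathway genes, 2 were higher and 4 lower, with a median log2 fold change of -0.14. Of 27 tested genes among 29 others of homologous recombination, 3 were higher and 4 lower, with a median of 0.02; FIGNL1, an ATPase of the recombination pathway, was higher at 0.74, and TOP3A, the topoisomerase that works with BLM, was lower at -0.65. Of 15 other checkpoint genes, 4 were higher and 5 lower; ATRIP, the binding partner of ATR, had 17.1, 14.5 and 14.3 CPM in knockdown libraries and 28.5, 26.6 and 28.03 CPM in control libraries (-0.86, SE 0.11, edgeR adjusted p = 0.000695). Among 10 genes of end protection and break ubiquitin signalling, 3 were higher and 2 lower; RIF1 and TP53BP1, which shield ends from resection, were higher at 1.22 and 0.53, and the histone H2AX, which ATM phosphorylates, was lower at -0.91. All of these differed at an edgeR adjusted p below 0.05, and no test was made between the lists.

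The other repair lists were called in both directions, except translesion synthesis, which was called in 1. Among all tested genes 26.6% were higher and 25.0% lower. Of 12 translesion genes 7 were higher and 0 lower at an edgeR adjusted p below 0.05, with a median of 0.71, and of 0.36 after removal of the length and GC trend; the polymerases REV1 and POLI were higher at 0.95 and 1.04. With control 1 and knockdown 2 left out, 9 of these 12 were higher and 2 lower. In that fit 36.7% of all tested genes were higher and 36.6% lower. End joining had 3 of 10 higher and 3 lower, with LIG4, its ligase, at 1.11 and XRCC6, a Ku subunit, at -0.41. Mismatch repair had 3 of 7 higher and 2 lower, nucleotide excision repair 4 of 18 tested higher and 2 lower, and base excision and single-strand break repair 3 of 20 higher and 7 lower. Without the same 2 libraries the balance turned for nucleotide excision repair, with 7 higher and 9 lower, for the other homologous recombination genes, with 10 higher and 6 lower, and for the other checkpoint genes, with 7 higher and 5 lower. ERCC1, which with its partner nuclease also cuts at crosslinks, was lower at -1.67, and UNG, the uracil glycosylase, was lower at -1.11.

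Cell cycle markers moved as well, and their part in the result was not tested. S phase markers were more often lower, and G2 and mitosis markers more often higher. Of 39 S phase markers 2 were higher and 19 lower, with a median log2 fold change of -0.28. Of 39 tested G2 and mitosis markers 19 were higher and 6 lower, with a median of 0.47. With the length and GC trend removed, these medians were -0.29 and 0.34. That of the 38 repair genes was then 0.13. Among all tested genes 26.6% were higher and 25.0% lower. Summed S phase markers came to 4044 to 4159 CPM in knockdown libraries and 4862 to 5096 CPM in control libraries. Summed G2 and mitosis markers came to 9202 to 10970 CPM in knockdown libraries and 6288 to 7818 CPM in control libraries. MCM5, a subunit of the replicative helicase, had 66.4, 66.4 and 71.8 CPM in knockdown libraries and 142, 144 and 146 CPM in control libraries. CDK1, the mitotic kinase, had 303, 262 and 317 CPM in knockdown libraries and 163, 126 and 134 CPM in control libraries. Control 1 was the highest control library for the summed markers of both phases and for the summed CPM of the 38 repair genes, which was 1907, 2003 and 1913 in knockdown libraries and 1645, 1318 and 1286 in control libraries.

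**Figure D5:**
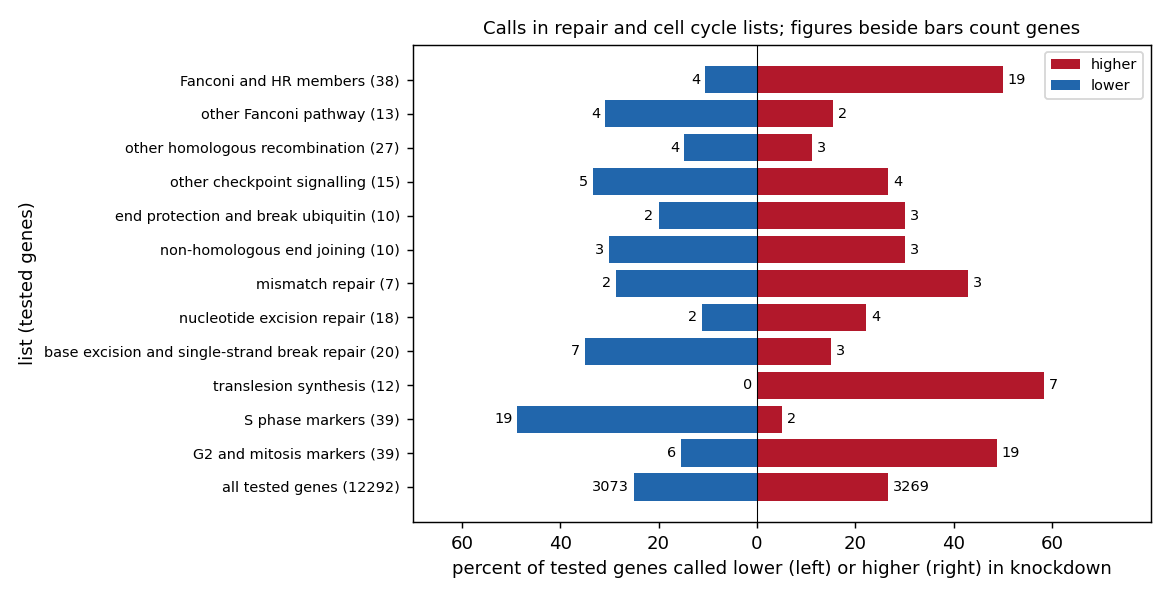
Share of tested genes called higher and lower by edgeR in the 38 repair genes, in 11 other repair and cell cycle lists and in all tested genes. The repair genes had 19 of 38 higher and 4 lower, translesion synthesis 58.3% higher and 0 lower, S phase markers 5.13% higher and 48.7% lower, and all tested genes 26.6% higher and 25.0% lower.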

How the data were processed

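Total RNA of PANC-1 cells was extracted with TRIzol and made into libraries with a NEBNext Ultra II kit, per the labels' protocols. The authors deposited whole-number read counts and FPKM per gene for the 6 libraries, per the file headers. The counts, lengths and totals gave the deposited FPKM back to within a relative difference of 2.29e-07. The labels and headers name no aligner, counter, build, annotation or strand setting, which are therefore not given in the sources used; 78.8% of 19852 identifiers found in GENCODE 29 share a start or end with it on GRCh38. The labels were mapped to groups through the sample titles.

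The quasi-likelihood test of edgeR 4.0.16 was run on the counts in R 4.3.3: filterByExpr left 12292 genes, libraries were scaled with TMM factors (0.9660 to 1.056), and the robust fit had no covariate. Calls are at a Benjamini-Hochberg adjusted p below 0.05 over all tested genes. CPM are TMM-scaled, and 0.5 CPM was added for log2 ratios by library. GC content is that of the longest GENCODE 29 transcript, and its trend with length was fitted with mgcv 1.9.3. The alternatives were other scalings and filters, DESeq2 1.42.0, limma 3.58.1 (voom, and on log2(FPKM + 1)), glmTreat, a stricter threshold, a replicate block and each library left out. The model was tested on simulated data in which 200 genes were changed and genes varied independently. There 11.8% of the calls were false, above the nominal threshold, and small changes were mostly missed, with 26% of 1.5-fold changes recovered. In the data 51.6% of tested genes were called, and control 1 and knockdown 2 stood apart. The simulated shares may therefore not carry over. With 3 libraries against 3 a permutation test of single values cannot go below p = 0.1, so none is given.

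The 38 genes, the other lists and the cell type markers were chosen with earlier results of these data known. All 38 genes are reported; of every other list at most the 3 called genes of smallest adjusted p could be named, and the marker KDR was named after its values were seen. The result of 1 gene is not reported here. Sequences are from RefSeq on GRCh38.p14, where 35 of the 38 genes had a promoter entry. Between replicates of a group, a chi-square of the counts per gene was 2.47 for knockdown 1 and 3 and 2.07 for control 2 and 3, against 75.21 and 76.78 for pairs with knockdown 2 and 25.69 and 30.69 for pairs with control 1, so no pair agreed within counting noise.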

Additional observations from a re-analysis of the deposited data

How the results depend on the processing

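At an adjusted p below 0.01 edgeR called 10 of the 38 genes higher, and 2119 genes higher and 2007 lower in all. The median log2 fold change of the 38 genes was 0.51 with library size alone as the scaling, where the median of all genes was 0.09, 0.35 with limma on log2(FPKM + 1), 0.27 with a length trend removed and 0.13 with a length and GC trend removed; without both control 1 and knockdown 2 it was 0.49, with 7 genes lower. Over the fits that each left out 1 library, 13 to 23 of the 38 genes were higher and 4 to 5 lower, 2411 to 3494 of all genes were higher and 2290 to 3461 lower, and the median of the 38 ranged from 0.30 to 0.53. Signs turned in genes not called with all 6 libraries: with 1 library left out, BARD1 ranged from -0.02 to 0.14, MUS81 from -0.19 to 0.02 and RAD54L from -0.15 to 0.03; RAD52 was 0.02 with library size alone, 0.02 with log2(FPKM + 1) and 0.04 without both libraries; RAD54L was 0.05 with library size alone and 0.04 with log2(FPKM + 1). With the length and GC trend removed ATR was -0.08, BRIP1 -0.09, BARD1 -0.32, RAD54L 0.20, MUS81 0.17 and EME1 0.04, and with the length trend removed BARD1 and RAD51D were -0.01 and RAD54L 0.04. RBBP8 was called higher with upper-quartile factors, library size alone, DESeq2, voom and log2(FPKM + 1). The causes were not tested. With a replicate block, 15 of the 38 genes were higher and 4 lower, and FANCD2, XRCC2, RAD51AP1 and CHEK1 were lost; in all, 2825 genes were higher and 2595 lower. The labels give no pairing of samples. Deviations of same-numbered libraries from their group mean correlated at -0.39, -0.374 and 0.407, and those of control 1 and knockdown 2 at 0.519. Because these 2 libraries stood apart from their replicates, the correlations cannot show whether same-numbered libraries were prepared together. RAD50 had the fewest counts of the 38 genes, 21 to 89 a library, and its level is uncertain because of the overlap with AC116366.3. Intervals between libraries cover neither the culture nor the viral construct.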
